A study of Mus musculus with 2 samples.

Results

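Ddt, Mif and the theta class glutathione transferases Gstt1, Gstt2 and Gstt3 are neighbouring genes of mouse chromosome 10, and all 5 were found by symbol among the 32285 genes of the tables. They were chosen from measured values: in an earlier look at these libraries, Ddt and Gstt2 had been among the genes with the lowest high-fat to low-fat ratio in plasma cell-like cells, and the other 3 were taken as paralogues beside them. The plasma cell ratios are therefore given below as a description of the selected genes only. The cells were live eYFP+ cells sorted from the stromovascular fraction (SVF), the cells that remain once fat cells are removed, of perigonadal white adipose tissue (gWAT). They came from male Cyp1a1Cre x R26LSL-eYFP mice, in which Cre made from the Cyp1a1 gene turns on eYFP permanently, so that any cell that has once expressed Cyp1a1, a target of the aryl hydrocarbon receptor (AHR), and its progeny are marked. One group was fed a low-fat diet (LFD, 10% fat) and the other a high-fat diet (HFD, 60% fat), both for 12 weeks, and both groups carried the same alleles. FICZ, a ligand of AHR, was given to both at 10 mg/kg, 5 days ahead of tissue collection. There was 1 library of pooled mice per diet, no map from cells to mice and no group without FICZ, so the libraries could be compared but the diets could not be tested, and no p-value is given.

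MIF (macrophage migration inhibitory factor) and its paralogue D-dopachrome tautomerase, the product of Ddt, are small cytosolic tautomerases that cells also release as cytokines. Both bind CD74 on the cell surface, which signals together with CD44, and MIF also engages the chemokine receptors CXCR2, CXCR4 and ACKR3. Theta class glutathione transferases join glutathione to small electrophiles, halogenated compounds among them, and are detoxification enzymes best known from the liver. In adipose tissue MIF is made by stromal and immune cells and has been studied as a factor in macrophage recruitment.

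The 5 genes lie on the minus strand within 89.0 kb (GRCm38, GENCODE M21, chromosome 10, 75771230 to 75860240), all protein coding. In the order of their coordinates these are Ddt (ENSMUSG00000001666, 75771230 to 75773414), Gstt3 (ENSMUSG00000001665, 75774115 to 75781414), Gstt1 (ENSMUSG00000001663, 75783813 to 75798584), Gstt2 (ENSMUSG00000033318, 75831114 to 75837424) and Mif (ENSMUSG00000033307, 75859353 to 75860240). The longest exact stretch shared by 2 of their annotated transcripts was 35 bases, between Gstt1 and Gstt3, and 26 bases between Gstt2 and Gstt3. Ddt shared at most 11 bases with any of the others, and Mif at most 10. RefSeq lists 3 Mif pseudogenes, none of which was a row of the tables. Their sequences were not compared with Mif, so whether any reads of theirs were counted as Mif is not known.

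RefSeq promoters (GRCm38.p6) were found for 4 of the 5 genes, all but Gstt2, and the 250 bases before the start are shown for Ddt and Mif because these differed in the pattern of their levels over cell types. Capitals mark an E-box (CACGTG) and 2 CCAAT boxes in Ddt and a full cyclic AMP response element (TGACGTCA) in Mif. The CCAAT boxes lie on the strand of the gene, while CACGTG and TGACGTCA read the same on both strands.
Ddt promoter (chr10:75773375-75773624, minus strand): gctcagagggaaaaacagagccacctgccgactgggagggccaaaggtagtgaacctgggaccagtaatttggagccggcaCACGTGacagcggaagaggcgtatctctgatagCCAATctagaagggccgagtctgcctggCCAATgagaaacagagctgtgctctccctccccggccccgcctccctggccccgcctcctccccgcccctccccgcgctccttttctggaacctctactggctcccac
Mif promoter (chr10:75860278-75860527, minus strand): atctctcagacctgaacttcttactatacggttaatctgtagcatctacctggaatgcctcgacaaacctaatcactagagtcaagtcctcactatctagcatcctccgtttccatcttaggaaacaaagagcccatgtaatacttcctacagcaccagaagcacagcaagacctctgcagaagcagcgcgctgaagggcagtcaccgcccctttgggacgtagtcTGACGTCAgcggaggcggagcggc
Over windows of this length, CACGTG was found in 6.02%, TGACGTCA in 1.55% and CCAAT in 33.8% of 32851 promoters, with both strands searched. CCAAT was also found in the windows of Gstt1 and Gstt3 and not in that of Mif. GCGTG, the core bound by AHR with ARNT, was present in 28.2% of all promoters, and the antioxidant response element core TGACNNNGC in 10.2%. Neither was found in any window of the 4 genes, of which Gstt3 had 2. The windows follow RefSeq starts, which can differ from the GENCODE positions given above. By GENCODE the Gstt1 window (75797732 to 75797981) lay inside the gene, and the Ddt window overlapped the gene's end at 75773414. The bases before the GENCODE start of Gstt1 were thus not searched. The windows held 62.8% G and C bases in Ddt and 51.2% in Mif, against a median of 52.4% over all promoters.

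The LFD library held 114311020 unique molecular identifiers (UMIs, 1 per captured transcript) in 11281 barcodes and the HFD library 119498750 in 9631, and 27 barcode sequences occurred in both. After filtering, 9294 LFD and 7879 HFD cells remained, with medians of 10124 and 12667 UMIs. They formed 19 clusters, of which 17 were given 15 cell type names from marker genes, a name ending in "-like" resting on the markers alone. Of the 15 types, 9 had at least 100 cells in both libraries, from 106 HFD ILC2-like (group 2 innate lymphoid) cells to 3700 LFD Wt1+ stromal/mesothelial-like cells, and were compared. Levels are UMIs of a gene per 1000000 UMIs of a type (CPM) with an exact 95% Poisson interval, and ratios are HFD over LFD with an exact conditional interval. The intervals cover counting error only, not differences between mice or libraries. A ratio is called lower or higher where its interval lies wholly on one side of 1. Beside each count of genes called within a type, the share of all genes called the same way is given. In summed cells, fewer transcripts per cell and fewer cells that express a gene cannot be told apart.

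**Figure D1:**
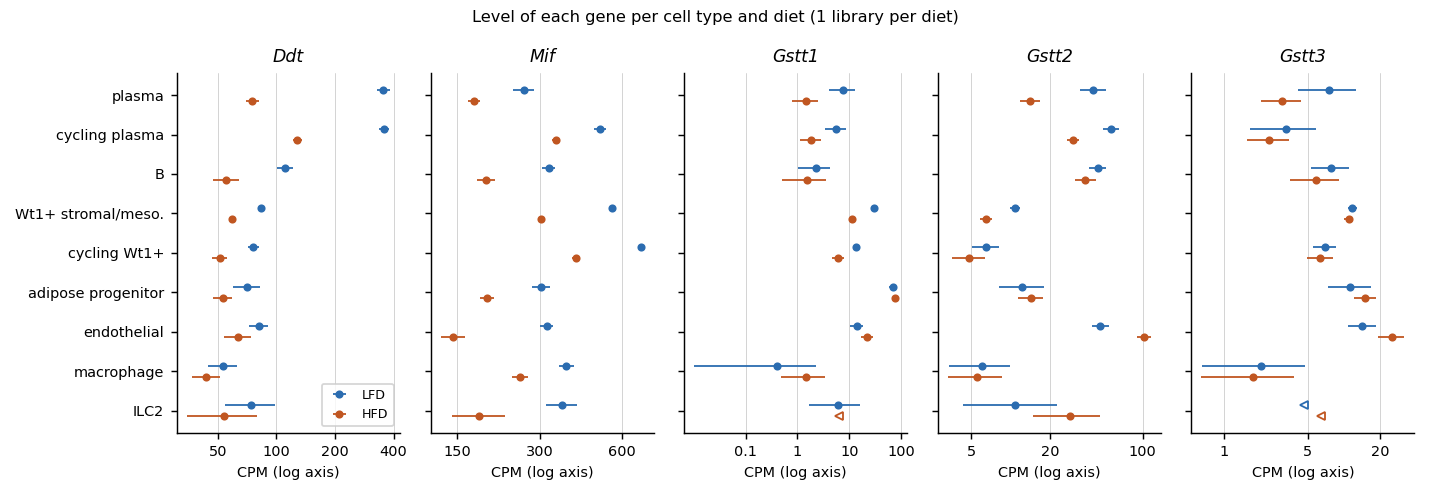
Level of each gene in 9 cell types (rows) in CPM on a log axis, LFD in blue and HFD in orange, 1 library each, with bars for the 95% counting interval and open triangles at the level of 3 counts where no UMI was found. Ddt was highest in the plasma cell types of the LFD library, at 354 and 356 CPM, and Gstt1 was highest in adipose progenitor-like cells.

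Ddt was detected in all 9 types, and in the LFD library its summed level was highest in the plasma cell types. The gene was chosen by its low plasma cell ratio, which favours a high LFD level there, so nothing is read from that order. Few cells held much of the level in LFD plasma cell-like cells, where the median cell had 92.8 CPM. Plasma cell-like cells had 354 CPM (328 to 382) under LFD against 75.3 CPM (69.9 to 81.0) under HFD, from 656 and 721 UMIs. Cycling plasma cell-like cells had 356 CPM (336 to 377) under LFD against 128 CPM (121 to 135) under HFD. These types were the highest under LFD, and of the 9 compared types B-like cells came next with 111 CPM (100.9 to 122). The HFD order of the 9 was flatter: cycling plasma cell-like cells led, and the plasma cell-like interval overlapped that of endothelial-like cells, 63.1 CPM (53.8 to 73.7). From the lowest to the highest of the 9 types the Ddt level spanned 6.71-fold in LFD and 2.95-fold in HFD.

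The HFD to LFD ratio of Ddt was 0.212 (0.191 to 0.236) in plasma cell-like and 0.360 (0.333 to 0.389) in cycling plasma cell-like cells, the contrast on which the gene was chosen. Outside these types, B-like cells had 111 CPM (100.9 to 122) under LFD against 55.2 CPM (47.5 to 63.9) under HFD, a ratio of 0.497 (0.416 to 0.593). Wt1+ stromal/mesothelial-like cells had 83.3 CPM (80.8 to 86.0) under LFD against 59.1 CPM (57.0 to 61.3) under HFD, a ratio of 0.710 (0.677 to 0.745). In each of these types the LFD and HFD intervals did not overlap. The other ratios called lower were 0.672 (0.601 to 0.751) in the cycling Wt1+ cells, 0.754 (0.620 to 0.919) in adipose progenitor-like and 0.778 (0.640 to 0.943) in endothelial-like cells. In macrophage-like cells, with 53.1 CPM under LFD against 43.4 under HFD, and in ILC2-like cells, with 74.0 CPM under LFD against 53.7 under HFD, the ratios of 0.818 (0.643 to 1.04) and 0.725 (0.428 to 1.1996) could not be told from 1 at this depth. Ddt was thus called lower in the HFD library in 7 of 9 types, the plasma cell types of its choice included, and higher in none. The share of all genes called lower in as many types is not given, so nothing is read from this count.

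**Figure D2:**
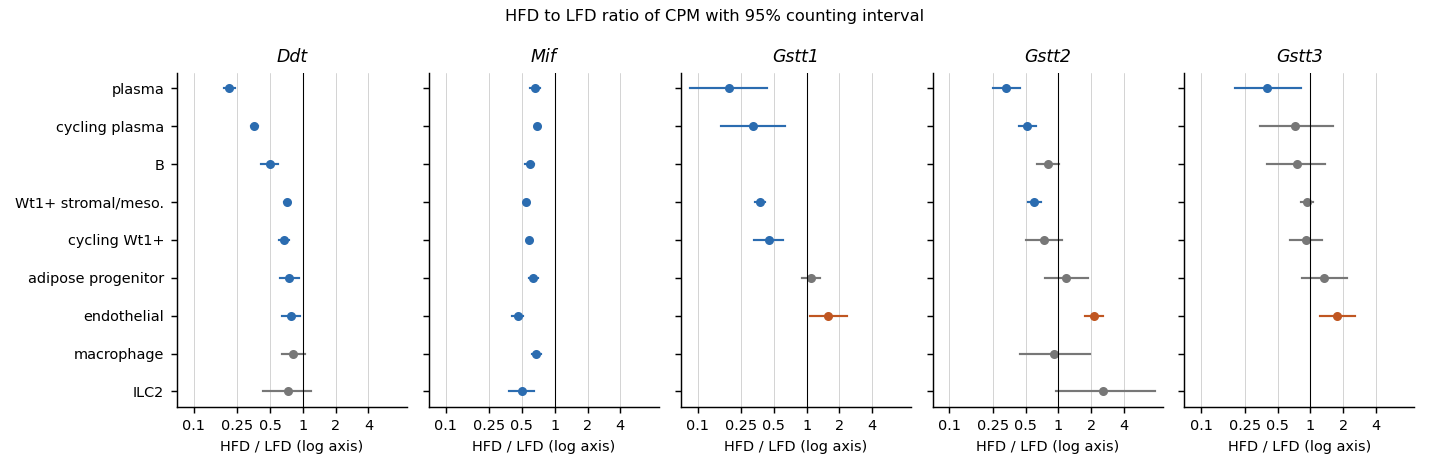
HFD to LFD ratio of CPM per gene and cell type on a log axis with the 95% counting interval, blue where the interval lies below 1, orange where above and grey otherwise; types with under 20 summed counts are left out. Mif lies below 1 in all 9 types, and Gstt1, Gstt2 and Gstt3 lie above 1 in endothelial-like cells.

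Within the plasma cell types the Ddt UMIs were spread unevenly over cells, with a larger share in the top 10% of cells in the LFD library. In LFD plasma cell-like cells the median cell had 92.8 CPM of Ddt, while the cell at the 95th percentile had 1127 CPM and the highest count was 119 UMIs in 1 cell. The 18 cells with the most, 10% of the cells, held 73.6% of the Ddt UMIs. In HFD plasma cell-like cells the top 10% held 46.6%, the median cell had no Ddt UMI, the 95th percentile was 255 CPM and the highest count 26. By this share Mif was more even in the same cells, with 31.5% of its UMIs in the top 10% in LFD and 32.0% in HFD. The share can grow as counts fall, and in HFD Ddt had 721 UMIs against 1651 of Mif. After thinning every cell to 2000 UMIs, the variance of the Ddt count was 4.51 times its mean in LFD and 1.43 times in HFD plasma cell-like cells, and for Mif 1.04 and 1.22 times. The highest LFD cell held 119 of the 656 UMIs, and without the highest cell of each library the Ddt values were 3.63 and 1.09 times. Those of Mif were then 1.01 and 1.22 times, so by this measure Mif was the more even gene in LFD only. In cycling plasma cell-like cells the libraries differed less, with 53.2% of the Ddt UMIs in the top 10% in LFD and 46.7% in HFD, and a variance of 2.66 and 2.04 times the mean. The variance over the mean can grow with the mean, which for Ddt was higher in LFD. These variance values are therefore not read as a difference in spread between the libraries.

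**Figure D3:**
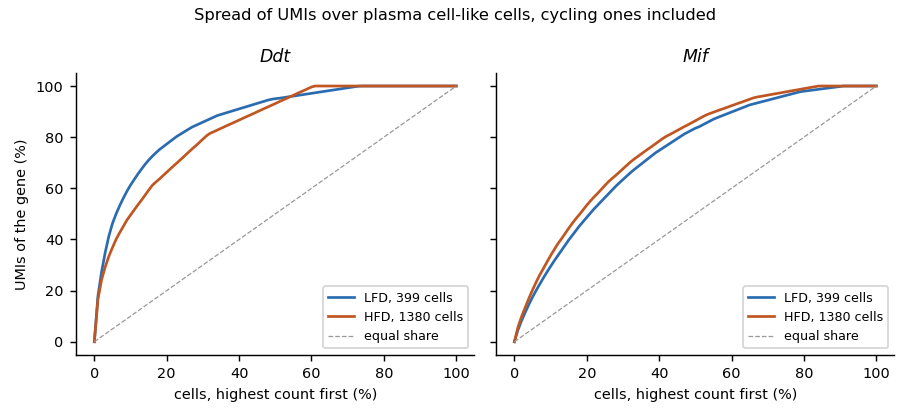
Cumulative share of a gene's UMIs (vertical, %) against the share of plasma cell-like cells, cycling ones included, ordered from the highest count (horizontal, %), for 399 LFD and 1380 HFD cells; the dashed line marks equal shares. At 10% of the cells the curve of Ddt stands at 61.3% in LFD and 49.6% in HFD, and the 2 curves of Mif lie close together.

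Cells with at least 15 Ddt UMIs, a limit set after the values had been seen, were 29 of 399 LFD plasma cell-like cells (7.27%, exact binomial interval 4.92 to 10.3%) and 12 of 1380 HFD ones (0.870%, 0.450 to 1.51%) when both plasma types were counted. They held 1002 of 1856 Ddt UMIs in LFD and 328 of 2133 in HFD. The binomial intervals treat cells as independent draws and do not cover differences between mice or libraries. They are no test of diet, and the contrast is the one on which Ddt was chosen. No cell of another type reached this limit, and with a limit of 10 UMIs 47 LFD and 29 HFD plasma cell-like cells did, beside 4 LFD cells of other types. These cells were deeper than the rest, with a median of 16093 against 11981 UMIs in LFD and 22488 against 13545 in HFD, and the part of depth in the count was not tested. Without them the Ddt ratio was 0.474 in plasma cell-like and 0.530 in cycling plasma cell-like cells, and without cells of at least 10 Ddt UMIs 0.544 and 0.585. Since these cells were left out by their Ddt count and were more frequent in LFD, the ratio had to rise, and nothing is read from its size.

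The other members were higher in the same LFD cells. In the 29 LFD cells Gstt2 was at 155 CPM (122 to 194) against 41.8 (36.2 to 48.0) in the other LFD plasma cell-like cells, a ratio of 3.70 (2.80 to 4.85). By fold, computed after adding 20 CPM to both levels, Gstt2 was number 2 of all genes, directly after Ddt itself. Both genes were chosen for a low HFD to LFD ratio in plasma cell-like cells, which favours a high LFD level there. The 29 cells add to that level, so the choice favours a high place in this order. Gstt2 UMIs were found in 25 of the 29 cells. Gstt1, with 11 UMIs in these cells, was at 22.7 CPM (11.3 to 40.6) against 4.64 (2.91 to 7.03), and Gstt3, with 8 UMIs, at 16.5 CPM (7.12 to 32.5) against 3.59 (2.09 to 5.74). Mif differed less, at 547 CPM (483 to 616) against 400.5 (383 to 419), a ratio of 1.36 (1.195 to 1.55). Of the genes around the 5, the ratio was 1.10 (0.918 to 1.32) for Derl3, an endoplasmic reticulum protein of secretory cells, 1.04 (0.790 to 1.35) for the spliceosome gene Snrpd3, 1.60 (0.732 to 3.15) for Cabin1, 0.664 (0.325 to 1.22) for the chromatin remodelling subunit Smarcb1 and 0.558 (0.332 to 0.885) for the mitochondrial Chchd10. Gm49980, which has no position in the annotation used here, had a ratio of 2.26 (1.65 to 3.04). These genes were named after their values had been seen. In the 12 HFD cells Gstt2 was at 72.6 CPM (43.7 to 113) against 21.8 (19.8 to 23.9), a ratio of 3.33 (1.99 to 5.26), and was number 9 by the same fold. The HFD ratio of Mif was 1.59 (1.30 to 1.92). Those of Gstt1, with 2 UMIs in these cells, Gstt3, with 3, and Gm49980 could not be told from 1. They were 4.86 (0.565 to 19.1), 4.49 (0.897 to 13.9) and 1.99 (0.947 to 3.70). Of the LFD cells with a leading light chain variable gene of at least 10 UMIs, that gene was Iglv1 in 21 of 22 cells with at least 15 Ddt UMIs and in 135 of 156 others.

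Plasma cell-like cells also differed in composition between the libraries. Immunoglobulin genes took 35.8% of UMIs in LFD and 42.2% in HFD plasma cell-like cells, and 24.0% and 28.7% in the cycling ones. With these genes left out of the totals the Ddt ratio was 0.236 in plasma cell-like and 0.383 in cycling plasma cell-like cells. The 9 markers of B cells summed to 572 CPM (LFD) and 503 CPM (HFD) in plasma cells, with 3 at 0 in each. The 12 adipose progenitor markers summed to 1844 and 1238 CPM, of which Ly6a, an antigen that lymphoid cells also carry, made up 1444 and 972 CPM and the collagen gene Col3a1 201 and 129.97 CPM, and their part in the ratios was not tested. The 9 mesothelial markers summed to 11.3 and 11.1 CPM, 2.75% and 1.64% of their level over all cells of the library, which as an estimate of free RNA would carry 2.69 and 1.10 CPM of Ddt.

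Mif was detected in each of the 9 compared types and was lower in HFD in 9 of 9, as 1.57% of 5036 genes were (79 genes, of those with at least 20 UMIs in each type). It was highest in cycling Wt1+ stromal/mesothelial-like cells, with 702 CPM (687 to 718) under LFD against 406 CPM (394 to 419) under HFD, a ratio of 0.579 (0.557 to 0.601). Wt1+ cells that were not cycling had 549.5 CPM (543 to 556) under LFD against 303 CPM (298 to 307) under HFD, a ratio of 0.551 (0.540 to 0.562). In both the LFD and HFD intervals were far apart. Endothelial-like cells had the lowest ratio, 0.456 (0.405 to 0.512), with 317 CPM (300.2 to 336) under LFD against 145 CPM (130.3 to 160.3) under HFD. Cycling plasma cell-like cells had 497 CPM (474 to 522) under LFD against 344 CPM (333 to 355) under HFD and plasma cell-like cells 262 CPM (239.7 to 287) under LFD against 172 CPM (164 to 181) under HFD, with ratios of 0.692 (0.653 to 0.733) and 0.657 (0.593 to 0.728). Macrophage-like cells had 375 CPM (351 to 399.9) under LFD against 255 CPM (238 to 272) under HFD, a ratio of 0.680 (0.619 to 0.746). None of these pairs of intervals overlapped. The ratios were 0.590 (0.535 to 0.650) in B-like, 0.634 (0.576 to 0.698) in adipose progenitor-like and 0.500 (0.385 to 0.644) in ILC2-like cells. In adipose progenitor-like cells Ighm, an antibody gene these cells do not make, was at 29.1% of its level over all LFD cells and 1.34% over all HFD cells. Taken as free RNA, this would carry 146 of the 304 CPM of Mif under LFD and 3.85 of the 193 CPM under HFD, and the ratios of what is left would be above 1, 1.195 for Mif and 1.24 for Ddt. However, 2521 of the 2645 LFD Ighm UMIs of this type lay in 5 of 206 cells. Without the 5 cells of the most Ighm in each library Ighm stood at 1.41% (LFD) and 1.31% (HFD), and the ratios were 0.618 (0.561 to 0.681) for Mif and 0.749 (0.615 to 0.916) for Ddt.

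Cycling cells had more Mif than cells of the same lineage that were not cycling, in both libraries. The ratio of cycling to other cells was 1.89 (1.71 to 2.10) under LFD and 2.00 (1.88 to 2.12) under HFD in plasma cell-like cells. It was 1.28 (1.25 to 1.31) and 1.34 (1.30 to 1.39) in the Wt1+ class, and 1.25 (1.13 to 1.38) and 1.47 (1.26 to 1.71) in B-like cells. For Ddt the same ratio was 1.00 (0.912 to 1.11) under LFD and 1.70 (1.55 to 1.86) under HFD in plasma cell-like cells, and 0.913 (0.848 to 0.982) and 0.865 (0.785 to 0.950) in the Wt1+ class. Immunoglobulin genes took 35.8% (LFD) and 42.2% (HFD) of UMIs in plasma cells that were not cycling, and 24.0% and 28.7% in cycling ones. That difference raises the plasma cell ratios of Mif and Ddt, and ratios without these genes are not given.

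A lower level in all 9 types was not particular to Mif. Genes of few UMIs have wide intervals and are called less easily. The share of 1.57% is therefore no measure of how common the call is among genes counted as deeply as Mif. A ratio below 1 in every type, which Mif and Ddt had, was found for 7.03% (354 genes) of the same 5036. Of the 79 genes, 35 encoded cytoplasmic ribosomal proteins, of 86 such genes among the 5036, and 8 encoded parts of the respiratory chain or ATP synthase, of 84. The share of UMIs from 100 ribosomal protein genes was lower in HFD in every type, by the most in endothelial-like cells (17.8% against 11.8%, a ratio of 0.662) and by the least in B-like cells (30.04% and 28.1%, a ratio of 0.935). The Mif ratio was below the ribosomal ratio in each of the 9 types. Acute phase and matrix genes of the Wt1+ cells, Saa3, Slpi, Col1a1 and Col1a2 among them, were also in the list of 79, and their part in the result was not tested. By the mesothelial markers, free RNA would carry 13.8 (LFD) and 4.71 (HFD) CPM of Mif in plasma cell-like cells, beside 262 and 172 CPM measured.

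The receptors and partners of MIF moved in both directions. Of 6 listed genes, 5 had at least 20 UMIs in Wt1+ cells, and 2 were called lower and 1 higher in HFD, where 15.7% of all genes were called lower and 39.2% higher. Ackr3, an atypical chemokine receptor that binds CXCL12 and MIF, was at 30.5 CPM under LFD against 11.4 under HFD in Wt1+ cells, a ratio of 0.373 (0.338 to 0.411). In adipose progenitor-like cells it was at 31.8 CPM under LFD against 147 under HFD, a ratio of 4.64 (3.63 to 6.003). In endothelial-like cells 4 of 5 were called higher and 1 lower, with a median ratio of 1.91, where 25.5% of all genes were called higher and 13.9% lower. Cxcr4, the chemokine receptor for CXCL12, was at 12.4 CPM under LFD against 34.5 under HFD there, a ratio of 2.78 (1.94 to 4.02). Its ratio was 2.23 (1.54 to 3.26) in B-like and 2.21 (1.33 to 3.95) in plasma cell-like cells. Cd74, the invariant chain of MHC class II and the MIF receptor, was at 67.2 CPM under LFD against 9.57 under HFD in adipose progenitor-like cells, a ratio of 0.142 (0.103 to 0.194). Without the 5 cells of the most Ighm in each library the ratio was 0.765 (0.476 to 1.26), with 12.6 and 9.67 CPM, so that the call rests on those cells. In the other types the list's median ratio ran from 0.77 in plasma cell-like to 1.30 in ILC2-like cells.

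Among the 9 types Gstt1 was found mainly in adipose progenitor-like and Wt1+ cells under LFD, while under HFD endothelial-like cells ranked above the Wt1+ cells. It was highest in adipose progenitor-like cells, with 69.5 CPM (58.9 to 81.4) under LFD against 76.4 CPM (69.5 to 83.7) under HFD, a ratio of 1.10 (0.913 to 1.33) that could not be told from 1. Of the 9 types Wt1+ stromal/mesothelial-like cells came next under LFD, with 30.6 CPM (29.1 to 32.2) under LFD against 11.4 CPM (10.5 to 12.4) under HFD, a ratio of 0.373 (0.338 to 0.411). Their cycling cells had 13.6 CPM (11.6 to 15.9) under LFD against 6.14 CPM (4.70 to 7.89) under HFD, a ratio of 0.450 (0.329 to 0.609). In both the LFD and HFD intervals lay apart. Endothelial-like cells went the other way, with 13.9 CPM (10.5 to 18.2) under LFD against 22.0 CPM (16.6 to 28.5) under HFD, from 55 and 56 UMIs, and overlapping intervals. The ratio was 1.57 (1.07 to 2.33), and this call was lost with a ratio of 1.43 under median-ratio scaling, 1.21 for the mean of per-cell CPM and 1.19 at clustering resolution 1.0. Hematopoietic types had few Gstt1 UMIs: 9 under LFD and 5 under HFD in B-like, 1 and 5 in macrophage-like, and 4 and 0 in ILC2-like cells. In plasma cell-like cells 14 UMIs in each library gave 7.56 CPM (4.13 to 12.7) under LFD against 1.46 CPM (0.799 to 2.45) under HFD. Mural-like cells, 7 in LFD and 67 in HFD, had 41.9 CPM (25.9 to 64.0) of Gstt1 under HFD.

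The Wt1+ class held 3 clusters in different proportions in the libraries, so the genes were also compared within each. The cluster led by Serpinb2 and Timp1 had 1715 LFD and 1075 HFD cells, that led by Pnoc and Krt19 had 661 and 1545, and that led by Saa3 and Gas6 had 1324 and 275. Gstt1 was at 15.1 CPM under LFD against 5.53 under HFD in the first, a ratio of 0.365 (0.293 to 0.452). In the second it was at 24.5 CPM under LFD against 13.6 under HFD, a ratio of 0.554 (0.467 to 0.659), and in the third at 63.9 CPM under LFD against 27.9 under HFD, a ratio of 0.436 (0.353 to 0.534). So Gstt1 was lower in HFD within each cluster. Mif was lower too, with ratios of 0.537 (0.523 to 0.552), 0.587 (0.564 to 0.612) and 0.763 (0.708 to 0.821), as was Ddt with 0.651 (0.607 to 0.698), 0.720 (0.659 to 0.786) and 0.786 (0.673 to 0.915). A cluster of 1281 LFD and 62 HFD cells led by Itm2a and Ncam1 stayed unnamed, and Gstt1 there was at 36.5 CPM under LFD against 10.1 under HFD, the latter from 9 UMIs.

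**Figure D4:**
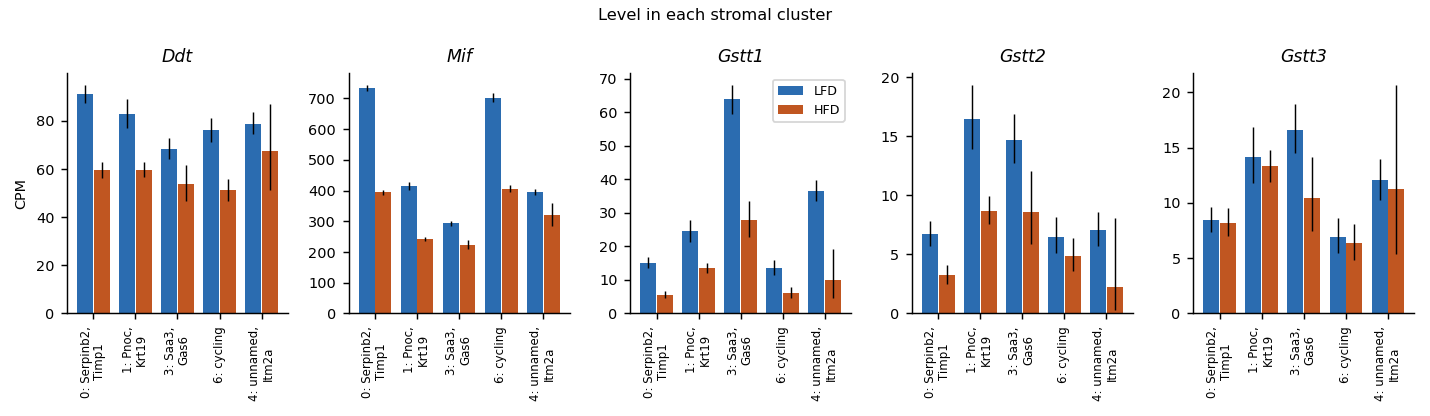
Level in CPM (linear axis from 0) of each gene in the 4 Wt1+ clusters and the unnamed stromal cluster, named by leading genes, with LFD in blue, HFD in orange and bars for the 95% counting interval. Gstt1 was highest in the cluster led by Saa3 and Gas6, with 63.9 (LFD) and 27.9 (HFD) CPM, and Mif in the cluster led by Serpinb2 and in cycling cells.

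Gstt2 was found mainly in endothelial and B lineage cells. Endothelial-like cells had 47.9 CPM (41.3 to 55.3) under LFD against 102 CPM (89.95 to 115) under HFD, the highest HFD level of the 9 types. The ratio was 2.13 (1.76 to 2.58) and lay between 1.69 and 2.39 under 13 alternatives. Of the 9 types cycling plasma cell-like cells led under LFD, with 57.8 CPM (49.99 to 66.5) under LFD against 29.8 CPM (26.7 to 33.2) under HFD, a ratio of 0.516 (0.431 to 0.619). Their LFD interval overlapped those of endothelial-like, B-like and plasma cell-like cells. Plasma cell-like cells had 42.1 CPM (33.3 to 52.6) under LFD against 14.0 CPM (11.7 to 16.6) under HFD, a ratio of 0.332 (0.249 to 0.445) that belongs to the values by which the gene was chosen and was 0.915 when cells were thinned to 2000 UMIs. B-like cells had 45.8 CPM (39.4 to 53.0) under LFD against 36.8 CPM (30.5 to 44.0) under HFD, a ratio of 0.804 (0.633 to 1.02). Cycling B-like cells, of which HFD had only 89, had 139 CPM (119 to 161) under LFD against 57.1 CPM (42.4 to 75.2) under HFD. They exceeded the other B-like cells 3.03 (2.45 to 3.74) times under LFD and 1.55 (1.09 to 2.17) times under HFD. Wt1+ cells were low in Gstt2, with 10.8 CPM (9.90 to 11.8) under LFD against 6.48 CPM (5.80 to 7.23) under HFD, a ratio of 0.6001 (0.521 to 0.691). Macrophage-like cells had 6.03 CPM under LFD against 5.54 under HFD, a ratio of 0.918 (0.442 to 1.94). Mural-like cells, 7 in LFD and 67 in HFD, had 87.7 CPM (63.7 to 118) under HFD.

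Gstt3 was low everywhere, and Wt1+ cells had 11.8 CPM (10.9 to 12.8) under LFD against 11.02 CPM (10.1 to 12.0) under HFD, a ratio of 0.933 (0.828 to 1.05). Endothelial-like cells had 14.2 CPM (10.7 to 18.4) under LFD against 25.1 CPM (19.3 to 32.1) under HFD, a ratio of 1.77 (1.22 to 2.58). This call was lost under 4 alternatives, with 1.42 for the mean of per-cell CPM, 1.42 under the stricter cell filter, 1.51 at resolution 1.0 and 1.49 after thinning. Adipose progenitor-like cells had 11.3 CPM (7.34 to 16.8) under LFD against 15.1 CPM (12.1 to 18.6) under HFD, a ratio of 1.33 (0.847 to 2.16). Among these types endothelial-like cells alone had a ratio whose interval left out 1. In plasma cell-like cells 14 LFD and 29 HFD UMIs gave 7.56 CPM (4.13 to 12.7) under LFD against 3.03 CPM (2.03 to 4.35) under HFD, a ratio of 0.400 (0.205 to 0.820) that turned to 1.37 when cells were thinned to 2000 UMIs. Few of these cells carried Gstt3 after thinning, 0.568% of 176 in LFD and 0.780% of 769 in HFD. ILC2-like cells had no Gstt3 UMI in either library, which allows up to 4.62 CPM in LFD and 6.44 CPM in HFD at 3 counts.

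In endothelial-like cells the members split: Ddt and Mif were called lower and the 3 transferases higher in HFD, of which the Gstt1 call was lost under 3 and the Gstt3 call under 4 alternatives. There 13.9% of 10862 genes were called lower and 25.5% higher, and Mif was below 0.5 as 2.95% of genes were, while Gstt2 was above 2 as 5.44% were. These libraries also differed there in depth, with a median of 3984 UMIs in LFD and 2915 in HFD, and in the 8 cycling markers, which summed to 755 and 327 CPM, and the part of either was not tested. The 9 endothelial markers summed to 6690 and 8892 CPM, the 9 mural markers to 76.8 and 230.2 CPM, the 5 erythroid markers to 708 and 1252 CPM and the 7 neutrophil markers to 133 and 17.6 CPM.

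In plasma cell-like cells all 5 members were called lower, where 15.4% of 9219 genes were, and 4 were at least 2-fold lower, as 3.73% of genes were. In cycling plasma cell-like cells 4 of 5 were called lower (14.8% of genes) and 2 of 5 at least 2-fold lower (2.47%). Since the set was chosen on this contrast, nothing is read from these counts. In Wt1+ cells 4 of 5 were called lower against 15.7% of 14642 genes, and 1 of them, Gstt1, was at least 2-fold lower against 2.92%. In cycling Wt1+ cells 3 of 5 were called lower against 10.8% of genes, with Gstt1 again at least 2-fold lower against 2.42%. In B-like cells 2 of the 4 members with at least 20 UMIs were called lower against 13.0% of genes, and 1, Ddt, was at least 2-fold lower against 3.31%. In adipose progenitor-like cells 2 of 5 were called lower against 11.1%, and none was 2-fold lower against 2.68% of genes. In macrophage-like cells Mif was called lower, 1 of the 3 members with at least 20 UMIs, against 7.84%, and none was 2-fold lower against 2.02%. In ILC2-like cells Mif was again the 1 of 3 called lower against 10.7%, and it was 2-fold lower against 5.37% of genes, while Gstt2, with 7 LFD and 13 HFD UMIs, had a ratio of 2.59 (0.959 to 7.65). The median log2 ratio of all genes was above 0 by more than 0.1 in 4 types, at 0.11 in Wt1+ and in adipose progenitor-like, 0.12 in cycling Wt1+ and 0.14 in endothelial-like cells, and with that shift taken out the Mif ratio was 0.510 in Wt1+ and 0.413 in endothelial-like cells.

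The 28 other genes of the tables within 500 kb were mixed. Of 12 with at least 20 UMIs in plasma cell-like cells, 3 were called lower and none higher, with a median ratio of 1.01, beside 15.4% and 5.40% of all genes. These were Snrpd3, a core spliceosome protein, at 70.8 CPM under LFD against 47.2 under HFD, Derl3 at 334 CPM under LFD against 236 under HFD, and Chchd10 at 88.0 CPM under LFD against 50.1 under HFD. Smarcb1 and Cabin1, on either side of the 5, had ratios of 1.13 (0.827 to 1.59) and 1.13 (0.680 to 1.98). In Wt1+ cells 4 of 16 were called lower and 5 higher, beside 15.7% and 39.2% of all genes, and in B-like cells 4 of 13 lower and 2 higher, beside 13.0% and 17.1%. In endothelial-like cells 6 of 12 were called higher and 1 lower, with a median ratio of 1.42, beside 25.5% and 13.9%. Chchd10 was among the former, at 35.0 CPM under LFD against 90.6 under HFD, a ratio of 2.59 (2.09 to 3.22), so that its ratio, like that of Gstt2, was above 1 in endothelial-like and below 1 in plasma cell-like cells.

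**Figure D5:**
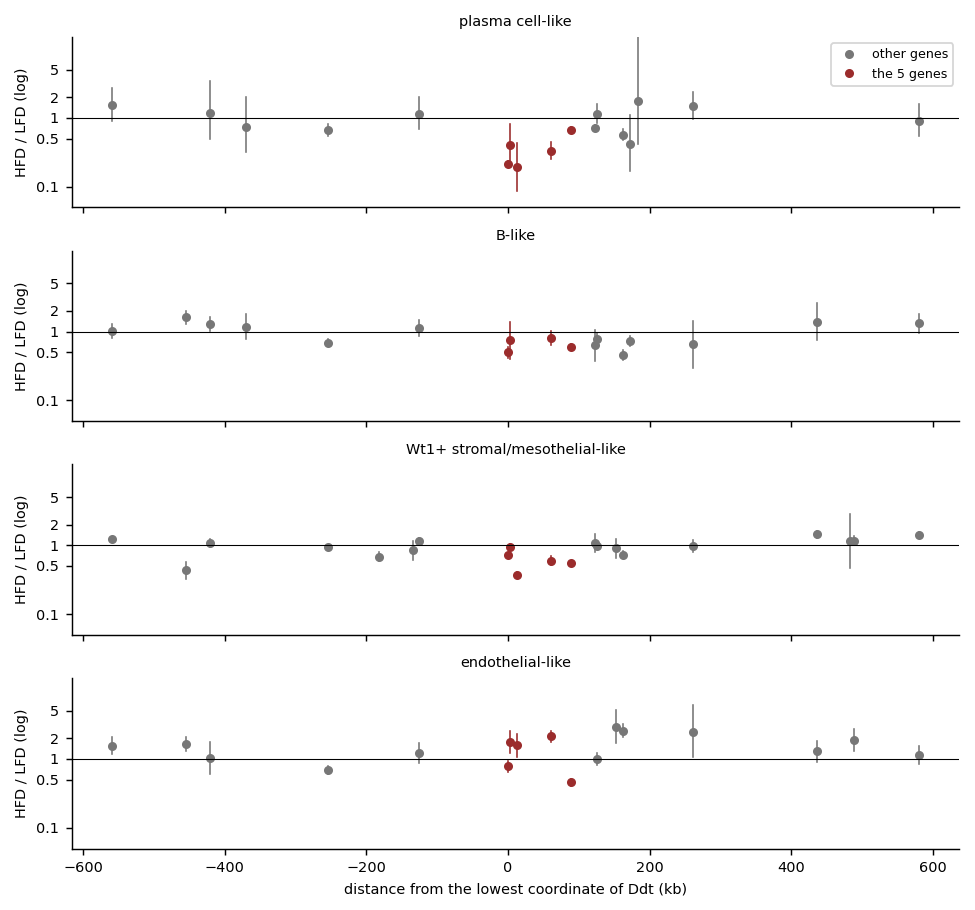
HFD to LFD ratio (log axis, 95% counting interval) of the 5 genes (red) and of the other genes within 500 kb (grey) with at least 20 summed UMIs, against the distance in kb from the lowest coordinate of Ddt, in 4 cell types. All 5 genes lie below 1 in plasma cell-like cells, and 3 of them lie above 1 in endothelial-like cells.

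Other glutathione genes moved in both directions. Of 23 other glutathione transferases, 18 had at least 20 UMIs in Wt1+ cells, of which 7 were called lower and 6 higher, with a median ratio of 1.02, beside 15.7% and 39.2% of all genes. Gsta4, which conjugates products of lipid peroxidation, was higher there, at 5.57 CPM under LFD against 14.0 under HFD, a ratio of 2.52 (2.18 to 2.91), as it was in the cycling cells, with 3.48 (2.50 to 4.91). Gstm1 was at 96.2 CPM under LFD against 332 under HFD in adipose progenitor-like cells, a ratio of 3.45 (2.99 to 3.99). Gsto1 was at 42.6 CPM under LFD against 16.5 under HFD in endothelial-like cells, a ratio of 0.387 (0.269 to 0.545). Gstp1 was at 27.7 CPM under LFD against 9.82 under HFD in B-like cells, a ratio of 0.355 (0.231 to 0.530). In plasma cell-like cells 1 of 9 was called lower and none higher, with a median ratio of 0.75, beside 15.4% and 5.40% of all genes, and in endothelial-like cells 3 of 11 were lower and 1 higher, beside 13.9% and 25.5%. Of 17 genes of glutathione synthesis and use, 5 of 16 were called lower and 7 higher in Wt1+ cells, again beside 15.7% and 39.2% of all genes. Gpx3, the secreted glutathione peroxidase, was at 69.5 CPM under LFD against 19.2 under HFD there, a ratio of 0.276 (0.256 to 0.296). Chac1, which breaks down glutathione and is induced in the unfolded protein response, was at 8.90 CPM under LFD against 27.7 under HFD in cycling plasma cell-like cells, a ratio of 3.12 (2.14 to 4.70).

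Over the 18 points that the 9 types and 2 libraries give, which share libraries and depth, the members did not follow one another closely. Pearson's r of log2(CPM + 1) was 0.28 between Ddt and Mif, 0.52 between Ddt and Gstt2, 0.72 between Gstt1 and Gstt3 and -0.38 between Mif and Gstt2. The genes most like Ddt among those with a mean of at least 20 CPM were Mvb12a, Eif3g, Igha, Timm17b and Ighg2b, with r from 0.80 to 0.83. Those most like Mif were Ndufs7, Ndufa2, Tomm6, Mrpl28 and Psmb4 (0.86 to 0.91), those most like Gstt1 were Cd320, Prelp, Txndc15, Sned1 and Fkbp14 (0.88 to 0.91), those most like Gstt2 were Trp53i11, Marc2, Gimap6, Prkd2 and Gimap4 (0.81 to 0.89), and those most like Gstt3 were Cxxc5, Cd81, Lrrc8a, Guk1 and Csad (0.81 to 0.89).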

How the data were processed

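Single-cell RNA-seq (10x 3' v3) libraries of sorted eYFP+ cells were used, 1 per diet. The values deposited were raw counts of UMIs, whole numbers without normalization, that the authors made with Cell Ranger 4.0.0 for mm10, per the labels' processing notes; the other deposited files named genes and barcodes only. Cells with at least 100 genes, 500 to 40000 UMIs and under 12.5% mitochondrial UMIs were kept, as in the study's methods. Doublets were scored per library against simulated ones, and the highest were removed at 0.8% per 1000 barcodes, 922 LFD and 658 HFD cells. Cells were clustered without integration on 2000 variable genes, from which mitochondrial, immunoglobulin and listed genes, the members and the genes within 500 kb were left out (30 principal components, 20 neighbours, Leiden at resolution 0.6; leidenalg 0.10.2, igraph 0.11.9, scikit-learn 1.9.0, numpy 2.4.6, scipy 1.17.1). A cluster took a name when at least 50% of a marker list and at least 3 markers were detected (in at least 10% of its cells, above 2 times the median cluster) and no other class had more markers among its 10 leading genes; a shallow cluster with no own marker among these stayed unnamed. That rule was set after the clusters had been seen. Members and gene lists were chosen with earlier results of these data known.

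Counts were summed per library and type. Depth was 114311020 and 119498750 UMIs, and intervals cover counting error only. Genes needed 20 summed counts to be counted. Members were named in every type, neighbours at 100 summed counts, and listed genes at 100 summed counts and a 2-fold ratio, at most 4 per list and type. Genes with fewer counts were named after their values were seen in 2 places, the cells rich in Ddt and the genes lower in all types. The interval and fold calculations were tested on simulated data. Alternatives were median-ratio scaling, the mean of per-cell CPM, no doublet removal, a stricter cell filter (1000 UMIs, 5% mitochondrial), a balanced neighbour graph, resolutions 0.3 and 1.0, and thinning to 2000 UMIs. Those added after seeing the data left out immunoglobulin genes, cells rich in Ddt or the 5 adipose progenitor-like cells of the most Ighm in each library, subtracted a free RNA estimate (from Ighm in stromal and endothelial types, mesothelial markers in others), or added the unnamed stromal cluster to the Wt1+ class. Positions were looked up in GENCODE M21, which held 32158 of the 32285 gene IDs, and promoters in RefSeq, where the motifs CACGTG, TGACGTCA and CCAAT were chosen after the sequences had been seen. The annotation behind the counts is not given in the sources used here.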

Additional observations from a re-analysis of the deposited data

Results flagged for a closer look

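Gstt1, Gstt2 and Gstt3 were higher in HFD in endothelial-like cells but lower in plasma cell-like cells, and neither interval held 1. The endothelial-like ratio divided by the plasma cell-like one came to 8.15 for Gstt1, 6.41 for Gstt2 and 4.41 for Gstt3. With 1 library per diet the difference between types was not tested, the genes had been chosen on the plasma cell ratio, and Gstt1 and Gstt3 rest on 14 to 64 UMIs per value. The endothelial-like call was lost under 3 alternatives for Gstt1 and 4 for Gstt3. The plasma cell-like ratio after thinning to 2000 UMIs was 0.915 for Gstt2 and 1.37 for Gstt3, which few cells then carried. With the mean of per-cell CPM the plasma cell-like ratio of Gstt3 was 0.644, and it was called lower in no type.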

How the results depend on the processing

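Of the ratios that could be computed (none for Gstt3 in ILC2-like cells, at 0 in both libraries), 41 of 44 stayed within their counting interval under median-ratio scaling, 41 of 44 with the mean of per-cell CPM, 38 of 44 without doublet removal, 21 of 29 under the stricter filter and 28 of 42 after thinning. Gstt3 in plasma cell-like cells turned, to 1.37 after thinning, and in adipose progenitor-like cells Ddt turned to 1.24 and Mif to 1.195 when free RNA estimated from Ighm was subtracted, an estimate that rests on 5 LFD cells. Mif was called lower in each of the 6 to 9 types that could be compared under each of the 12 alternatives that gave calls. The number of types called lower was 4 of 6 for Ddt under the stricter filter, 5 of 9 after thinning, 6 of 9 at resolution 1.0, 6 of 8 at resolution 0.3 and 7 or 8 of 9 otherwise. It was 5 for Gstt2 and 2 for Gstt3 under median-ratio scaling, 2 for Gstt1 after thinning, and 0 for Gstt3 with per-cell CPM, after thinning and without cells of at least 15 or of at least 10 Ddt UMIs. The number called higher was 0 for Gstt1 under median-ratio scaling and at resolution 1.0, 2 for Gstt1 without doublet removal, 2 for Gstt2 with per-cell CPM, and 0 for Gstt3 with per-cell CPM, under the stricter filter, at resolution 1.0 and after thinning. The cause was not tested. The share of genes past 2-fold over all types was 7.13%, 4.20% with a minimum of 50 counts and 14.8% without a minimum. With Spearman correlation 2 of the 5 genes most like Ddt, 2 for Mif, 1 for Gstt1, 3 for Gstt2 and 2 for Gstt3 stayed. Without doublet removal the Gstt1 ratio in Wt1+ cells was 0.581, and the Gstt2 ratio in plasma cell-like cells was 0.915 after thinning. No paired analysis was possible because each diet has 1 library. Depth limits Gstt1 and Gstt3 outside the stromal and endothelial cells, where they rest on under 35 UMIs per library.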

Other observations

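In the 6 named types with under 100 cells in a library, values are given without a ratio. Dendritic cell-like cells had 131 CPM (107 to 158) under LFD against 68.1 CPM (50.4 to 90.04) under HFD for Ddt, and 279 CPM (244 to 318) under LFD against 122 CPM (98.1 to 151) under HFD for Mif. T-like cells had 528 CPM (444 to 623) under LFD against 341 CPM (268 to 429) under HFD for Mif, and cycling B-like cells 404 CPM (370.0 to 440.2) under LFD against 281 CPM (247 to 318) under HFD. Mif was at a higher level in HFD in the other 3. NK-like cells had 241 CPM (166 to 339) under LFD against 344 CPM (269 to 434) under HFD for Mif, from 33 and 71 UMIs, and neutrophil-like cells 406 CPM (336 to 486) under LFD against 526 CPM (401 to 679) under HFD, from 119 and 59 UMIs, with overlapping intervals in both. Mural-like cells had 147 CPM (47.8 to 344) under LFD against 157 CPM (125 to 196) under HFD, from 5 and 79 UMIs. T-like and NK-like cells had no Gstt1 UMI in either library.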
